A study of Homo sapiens with 14 samples.

Results

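Read coverage of 10083 genes was compared between CAOV3 cells given STM3675 and CAOV3 cells given the solvent DMSO, as a proxy for RNA abundance. CAOV3 is an ovarian carcinoma cell line. The genes are those with at least 200 reads in each of the 4 libraries among the 13744 gene names in the deposited table (73.4%). Reads were summed per gene over its listed sites and scaled to the reads of the library at all listed sites, which gives RPM, the reads of a gene in a library scaled to 1000000 reads. The series measured m6A by GLORI, a sequencing assay in which unmethylated adenosine is converted and read as G while m6A is still read as A. Polyadenylated RNA was taken from 6 cancer cell lines after 24 h with DMSO, and from CAOV3 cells after 24 h with 1 uM STM3675 as well. Each group has 2 libraries, and the other 5 lines were used here only for their m6A levels. The series title concerns inhibition of METTL3 by another compound, STC-15, and the labels give STM3675 by its code name alone.

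N6-methyladenosine (m6A) is placed on nascent polyadenylated RNA by the METTL3-METTL14 writer complex, mostly in DRACH sequences of last exons and long internal exons, away from splice junctions. Reader proteins of the YTHDF family bind it in the cytoplasm and recruit deadenylases, so that methylated mRNAs tend to turn over faster. Double-stranded RNA in the cytoplasm is sensed by RIG-I-like receptors and induces interferon and the interferon-stimulated genes, many of which carry an interferon-stimulated response element (ISRE) in the promoter.

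The DMSO libraries held 19014817 and 18729571 reads at listed sites and the STM3675 libraries 28663588 and 23641176, so treatment and depth moved together. A read that spans several sites is counted at each, and the table cannot show fewer cells apart from less RNA per cell. Per-gene coverage was closer within a treatment (Spearman 0.988 between the DMSO libraries and 0.997 between the STM3675 libraries, across genes) than between treatments (0.926 to 0.930). The SD over genes of the log2 difference was 0.195 between the DMSO libraries, 0.109 between the STM3675 libraries and 0.493 to 0.505 across treatments. The labels do not say whether the 2 libraries of a group came from separate cultures, so p-values measure the spread between these libraries. All 7 epithelial markers checked were covered in both groups, with a summed coverage of 1571 and 1696 RPM with DMSO and 2145 and 2113 RPM with STM3675. CLDN3, CLDN4 and CDH1 were higher with STM3675, while KRT8 and KRT18 were lower. EPCAM was slightly lower (430 and 427 RPM with DMSO, 399 and 391 RPM with STM3675). For KRT19 the groups nearly met (161 and 197 RPM with DMSO, 157 and 149 RPM with STM3675). Of 7 ovarian surface or Muellerian markers 6 were listed. MSLN (250 to 288 RPM) and PAX8 (63.4 to 81.0 RPM) were covered, SOX17 had 3.58 to 5.84 RPM, and ESR1, WT1 and EMX2 had at most 1.02 RPM. Of 5 leukocyte markers only CD14 was listed (32.2 to 40.9 RPM), and the 2 endothelial markers listed summed to 1.55 to 2.72 RPM. Of 5 fibroblast markers 3 were listed, and COL1A1 made up nearly all of their sum (91.1 and 77.4 RPM with DMSO, 36.0 and 40.3 RPM with STM3675). The part of other cell types in the results was not tested.

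With STM3675, 2317 genes had higher coverage (23.0% of those tested) and 3851 had lower coverage (38.2%), by edgeR's quasi-likelihood test at an adjusted p of 0.05. The median over all genes was -0.12 on the log2 scale, and coverage is a share of the library, so a gain in some genes lowers the share of others. When TMM factors were used for scaling, the median was -0.01 and the split became 2993 higher (29.7%) and 2809 lower (27.9%). Changes are therefore relative to the library, and those of a gene list are best read against the median of all genes. Most changes were small: 253 genes rose and 161 fell by more than 2-fold, and the quartiles of the log2 fold change were -0.40 and 0.20. The groups did not overlap for 8213 genes (81.5%), which included every called gene.

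The largest rise was in BAMBI, a decoy receptor that dampens TGF-beta signalling, on chromosome 10. Its coverage was 26.0 and 28.5 RPM in the DMSO libraries and 169 and 185 RPM in the STM3675 libraries. The log2 fold change was 2.70 (SE 0.09, adjusted p = 1.02e-06, edgeR). OAS2, which makes the 2'-5' oligoadenylate that activates RNase L, had 19.5 and 20.3 RPM with DMSO against 129 and 119 RPM with STM3675, a log2 fold change of 2.64 (SE 0.09, adjusted p = 1.02e-06). The groups stood far apart for both genes.

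The other 10 genes of the largest rises among the genes tested were SOX4, C3, IFI44L, MFSD5, LRG1, RTP4, BLOC1S3, SAMD9L, TICAM1 and OXTR. Their log2 fold changes ran from 2.26 down to 1.96. Genes under the read minimum were not ranked, which leaves out genes with low coverage under DMSO. TNFAIP3, such a gene named after its counts were seen, had 5.05 and 4.91 RPM with DMSO. It had 19.7 and 23.3 RPM with STM3675, a log2 fold change of 2.11. MFSD5, a membrane transporter of the major facilitator family, rose from 428 and 374 RPM to 1645 and 1751 RPM. The transcription factor gene SOX4 rose from 32.4 and 26.7 RPM to 140 and 143 RPM, and C3, the central complement component, from 22.2 and 18.5 RPM to 94.3 and 93.1 RPM. TICAM1, the adaptor of Toll-like receptor 3, rose from 24.1 and 22.5 RPM to 91.4 and 91.3 RPM. IFI44L, RTP4, SAMD9L and OAS2 are interferon-stimulated genes, and TICAM1 lies in a pathway that senses double-stranded RNA.

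Among the 12 largest falls, DCLK1, a microtubule-associated kinase, was first, with 77.3 and 75.1 RPM with DMSO against 12.5 and 13.0 RPM with STM3675 (log2 fold change -2.58, SE 0.09, adjusted p = 1.02e-06, edgeR). SDHAF1, an assembly factor of succinate dehydrogenase, had 44.9 and 53.6 RPM against 9.0 and 8.5 RPM (-2.49). DMBT1, a secreted scavenger receptor, had 410 and 348 RPM against 64.3 and 75.3 RPM (-2.44). For each of these genes both STM3675 libraries lay far below both DMSO libraries. ENY2, C14orf132, FHL2, SGK1, PRORP, CTNNAL1, NANOS1, SLC5A3 and GRAMD1B followed, with log2 fold changes from -1.96 to -1.59. SGK1, a kinase gene with a short-lived mRNA, fell from 613 and 576 RPM to 174 and 172 RPM, and FHL2, a LIM-domain cofactor, from 223 and 186 RPM to 58.3 and 60.7 RPM. SLC5A3, the myo-inositol transporter, stands with MRPS6 under at least 1 listed site, where their reads cannot be told apart. All 24 of these genes were called in each alternative in which they could be tested.

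**Figure D1:**
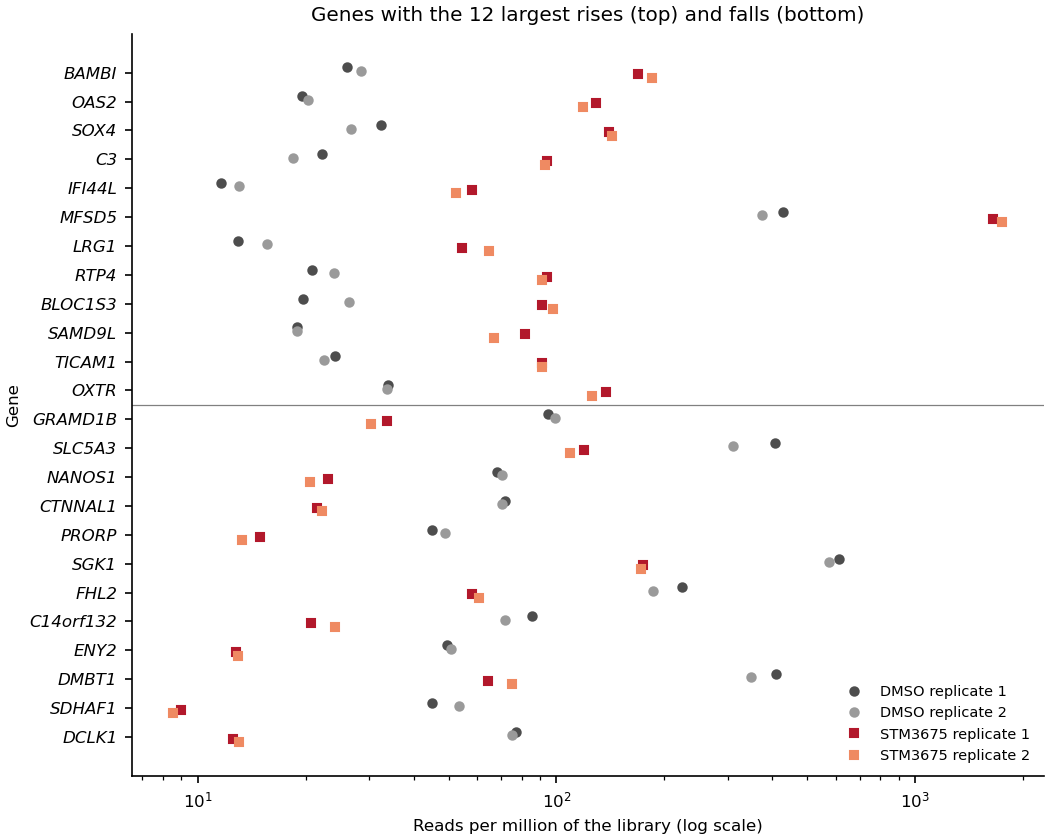
Coverage in RPM (log scale) of the 12 genes with the largest rises and the 12 with the largest falls, 1 point per library. In every row both STM3675 libraries lie on one side of both DMSO libraries, from BAMBI (log2 fold change 2.70) to DCLK1 (-2.58).

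Gene coverage moved with the gene's m6A level under DMSO, which was taken as the mean methylated fraction of its listed sites weighted by reads. In the quintile of genes with the lowest level (5.81% to 18.4%) the median log2 fold change was -0.38, and 5.95% of genes rose while 61.2% fell. The medians of the next quintiles were -0.20, -0.11 and 0.02. In the quintile with the highest level (41.2% to 88.3%) the median was 0.14, and 42.4% of genes rose while 23.4% fell. The median level was 14.5% with DMSO and 9.62% with STM3675 in the lowest quintile, and 48.1% and 10.8% in the highest. Levels in the lowest quintile, which take in sites outside DRACH, thus lay near those left with STM3675. How much of them is methylation was not tested. The order of the quintiles was the same with TMM factors, where the medians ran from -0.27 to 0.25. Spearman's rho between level and fold change was 0.384 over the 10083 genes, which share libraries and are not independent replicates.

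The top quintile exceeded the bottom quintile by 0.52 on the log2 scale. Taken library by library, against each gene's mean over the 4 libraries, the difference between these quintiles was -0.26 and -0.24 in the DMSO libraries and 0.24 and 0.26 in the STM3675 libraries. The groups did not overlap, with an exact two-sided permutation p of 0.33, the smallest that 2 against 2 libraries can give. The m6A level and the fold change share the DMSO libraries, and the part of this in the relation was not tested. With the level of the same genes in the other 5 lines rho was 0.385. With the level from 1 DMSO library and the fold change against the other, the difference between the outer quintiles was 0.49 or more.

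**Figure D2:**
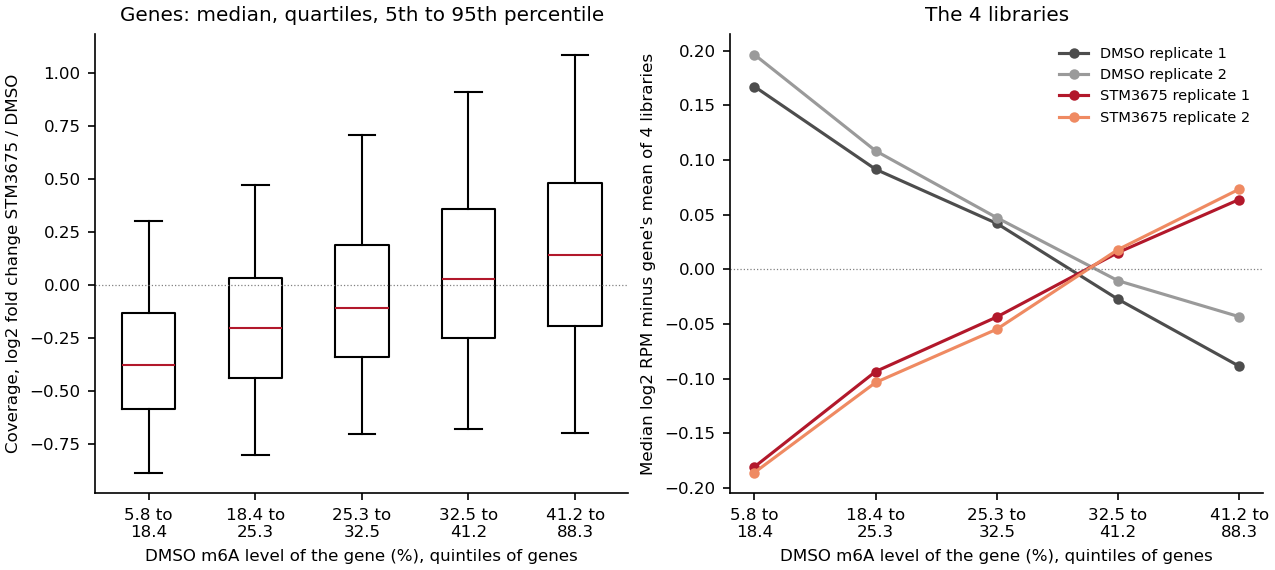
Left, log2 fold change of coverage (median, quartiles, whiskers at the 5th and 95th percentiles) in quintiles of genes by DMSO m6A level. Right, the median log2 RPM of each quintile in each library relative to the gene's mean of the 4 libraries: the STM3675 lines climb where the DMSO lines descend, and the outer boxes on the left have medians of -0.38 and 0.14.

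The m6A level went with gene structure, and both went with the fold change. Genes that rose had a median m6A level of 37.2%, 6 exons and 14 DRACH sites, and genes that fell had 23.6%, 11 exons and 7 DRACH sites. The exon number is that of the last exon named in the table, and its rho with the fold change was -0.290, against -0.359 with the m6A level. Genes of 1 to 5 exons had a median log2 fold change of 0.14, followed by -0.11 for 6 to 10 exons, -0.19 for 11 to 18 and -0.25 for 19 or more. The top m6A quintile exceeded the bottom quintile within each class, by 0.57, 0.38, 0.37 and 0.26. Among 190 single-exon genes, 100 rose and 36 fell, beside 23.0% and 38.2% of all genes tested. Their median was 0.29, and their median m6A level was 47.4%.

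**Figure D3:**
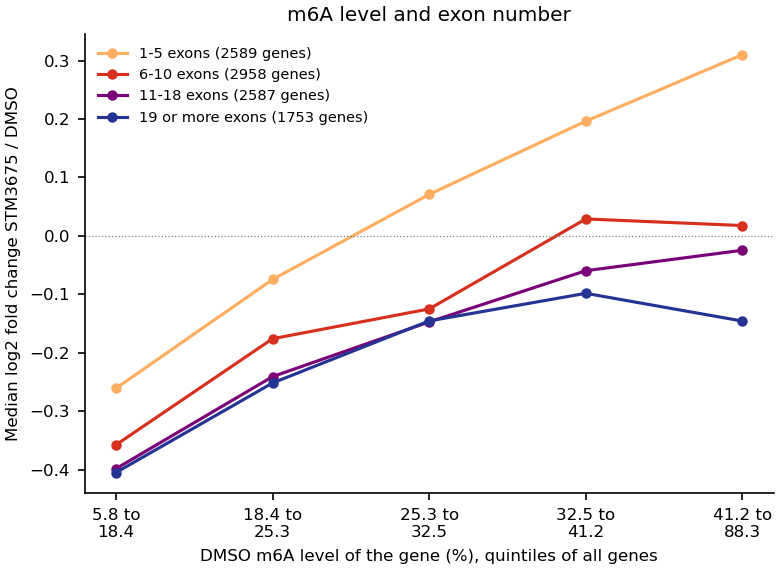
Median log2 fold change of coverage by quintile of the DMSO m6A level, drawn separately for 4 classes of exon number. The line of genes with 1 to 5 exons lies highest at each quintile and reaches 0.31. Genes of 11 to 18 exons and of 19 or more exons stay below 0.

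The gene's reads, summed over the 4 libraries, went with the fold change too (rho 0.255). These sums include the STM3675 libraries, so a gene that rose gained reads by definition. The same difference between outer m6A quintiles was 0.46, 0.51, 0.47, 0.45 and 0.39 within quintiles of these reads from low to high.

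Single sites show the loss of methylation beside the coverage. In BAMBI the last-exon site at chr10:28682417 (GRCh38, plus strand, motif GAACT, methylated base in the middle) was 63.0% and 67.3% methylated with DMSO and 7.49% and 8.39% with STM3675, at 46, 49, 427 and 453 reads. In SGK1 the last-exon site at chr6:134170281 (minus strand, GGACT) went from 93.6% and 95.4% to 17.0% and 16.4%, at 1316, 1603, 640 and 456 reads. Methylation was lower with STM3675 at both sites, while the reads moved in opposite directions. Several of the strongly methylated genes fell, against the trend of their quintile: SDHAF1 (m6A level 63.0%), PRORP (48.5%), DMBT1 (48.0%) and NANOS1 (47.5%). Conversely, C3 (16.0%, and 10.2% with STM3675) and OAS2 (20.1%, and 7.80% with STM3675) rose from the lower m6A quintiles.

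Members of the m6A writer complex rose or did not pass the test. All 8 were measured, with 5 higher (62.5%) and 0 lower (7 and 0 with TMM factors) and a median log2 fold change of 0.31. Of all genes tested 23.0% rose and 38.2% fell. WTAP, the adaptor that holds the complex in nuclear speckles, had 130 and 131 RPM with DMSO and 466 and 471 RPM with STM3675, a log2 fold change of 1.85 (SE 0.07, adjusted p = 1.02e-06, edgeR). RBM15B, which guides the complex to RNA, had 153 and 159 RPM against 358 and 377 RPM (1.24). Both stood clear of the DMSO libraries. METTL3, the catalytic subunit, had 25.5 and 28.7 RPM with DMSO and 28.4 and 26.5 RPM with STM3675 (log2 difference 0.02, adjusted p = 0.892), and the groups overlapped. METTL14, its partner, had 70.9 and 71.7 RPM against 85.2 and 82.7 RPM (0.24), a call that was lost without either STM3675 library.

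Readers and other RNA methyltransferases moved in both directions, and are set beside all genes tested, of which 23.0% rose and 38.2% fell. Of 12 readers measured 4 rose and 8 fell (5 without STM3675 replicate 2), and the median was -0.36. YTHDF2, the reader that brings methylated mRNA to deadenylation, had 162 and 161 RPM with DMSO and 443 and 422 RPM with STM3675 (log2 fold change 1.42, SE 0.07, adjusted p = 2.33e-06, edgeR). Its gene m6A level was 69.8% with DMSO, and its site at chr1:28743665 (plus strand, GGACA) went from 95.3% and 97.6% methylated to 12.4% and 13.4%. YTHDC1, the nuclear reader, rose from 102 and 94.1 RPM to 165 and 157 RPM, and IGF2BP2, a reader that stabilises its targets, fell from 78.7 and 71.9 RPM to 38.3 and 38.8 RPM. Of 7 erasers and other RNA methyltransferases, METTL16, which methylates U6 and MAT2A RNA, rose from 55.4 and 48.3 RPM to 89.6 and 86.5 RPM, the 1 rise of the list (2 without either DMSO library), and 4 fell (2 without either STM3675 library), among them ZCCHC4, an rRNA methyltransferase (-0.91). The demethylase FTO was not called (0.25, adjusted p = 0.155). Of 12 methionine cycle genes 0 rose and 7 fell (4 without either STM3675 library, and 2 rose without DMSO replicate 2). The call of MAT2A, which makes the methyl donor (-0.26), was lost with TMM factors.

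**Figure D4:**
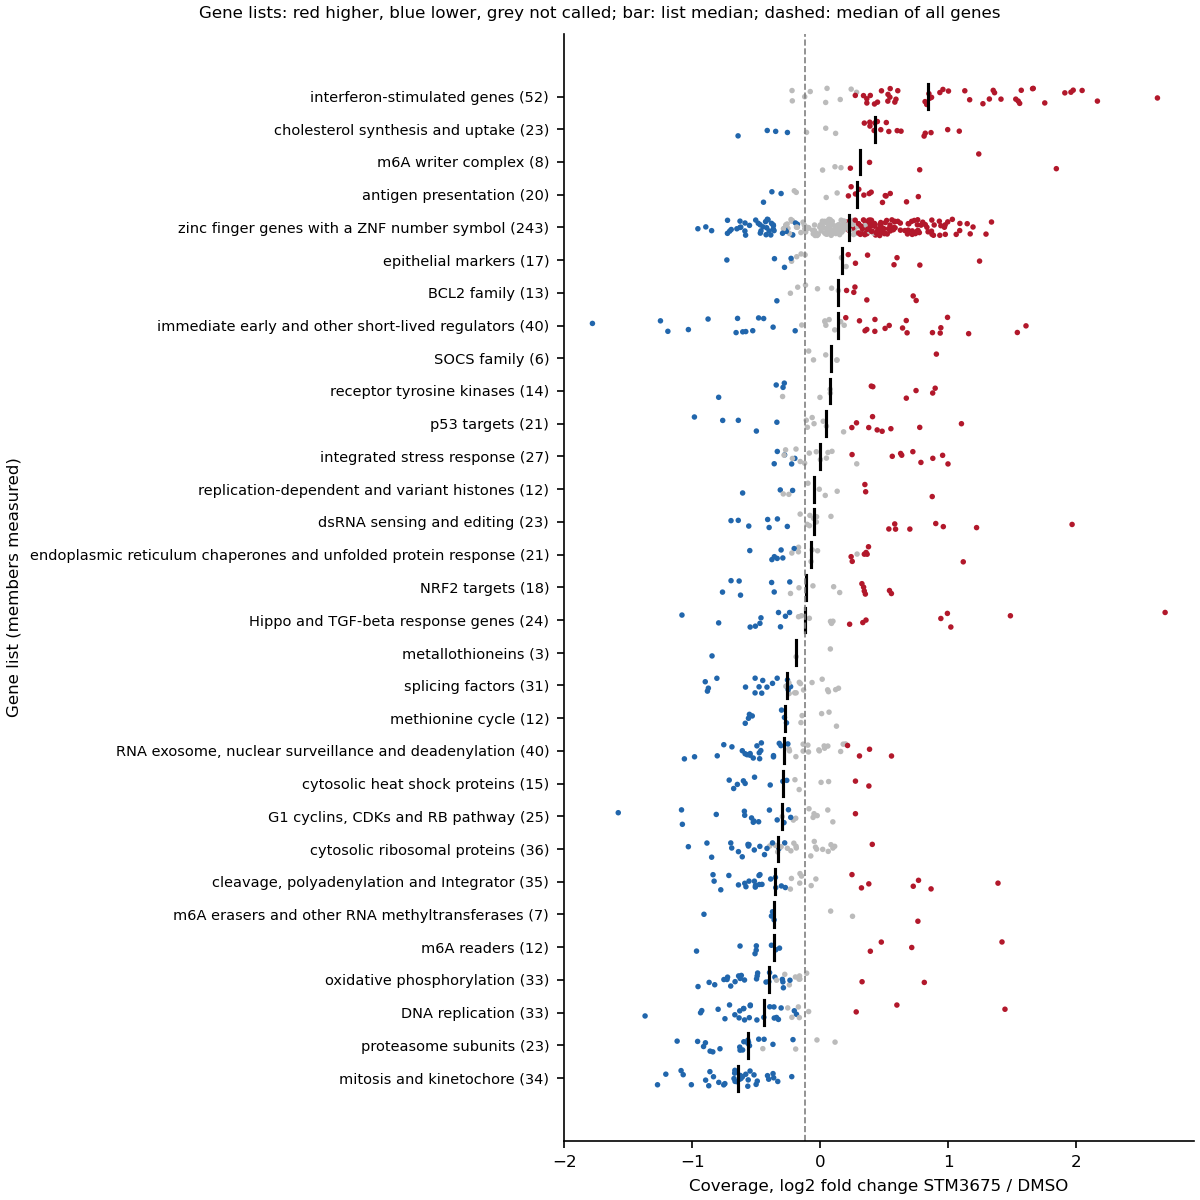
Log2 fold change of coverage of each measured member of 31 gene lists, ordered by the list median (bar), with the median of all genes (-0.12) dashed. Interferon-stimulated genes lie farthest to the right (median 0.84) and mitosis genes farthest to the left (median -0.64).

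Interferon-stimulated genes formed the list with the highest median, and are set beside all genes tested, of which 23.0% rose and 38.2% fell. Of 60 listed genes 57 were in the table and 52 were measured; 43 of these rose, 0 fell, and the median log2 fold change was 0.84 against -0.12 over all genes. Leaving out each library in turn gave 38 to 44 higher, and at most 1 lower. The list's median relative to each gene's mean was -0.41 and -0.37 in the DMSO libraries and 0.44 and 0.39 in the STM3675 libraries. Beside OAS2, IFI44L (11.6 and 13.0 RPM with DMSO, 58.0 and 52.6 RPM with STM3675) and RTP4 (20.8 and 24.0 RPM against 94.1 and 91.0 RPM) rose most. The 9 members not called included GBP2 (33.2 and 28.2 RPM against 27.0 and 25.6 RPM, adjusted p = 0.123) and NMI (adjusted p = 0.119). The 5 members under the read minimum were EPSTI1, MX2, RSAD2, SP110 and TRIM22. RSAD2, named after its counts were seen, had 63 and 31 reads with DMSO and 271 and 214 reads with STM3675.

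These genes did not have a high m6A level: their median was 25.7%, against 28.8% over all genes. All 52 measured members had a fold change above the median of the genes in their own m6A quintile, by a median of 1.00 on the log2 scale. In the lowest m6A quintile, where 5.95% of all genes rose, 10 of the 16 members rose, and in the highest quintile 9 of 10 rose. From the lowest m6A quintile to the highest, the members' medians were 0.35, 0.61, 0.94, 1.49 and 1.45.

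Promoter sequence is shown for the ISRE, the element named above as the one many genes of this list carry. The core searched was GAAA, any 2 bases and GAAA again, on either strand (TTTC, 2 bases and TTTC when reversed), in RefSeq promoters of GRCh38.p14 from 250 bases before to 50 after the start. It occurred in 3.57% of 35116 promoters and in 28 of the 42 measured members that had a promoter in the table (66.7%). The 28 are 23 of the 37 called higher and all 5 of those not called higher. Over the 8299 tested genes with a promoter in the table, the core occurred in 5.95% of those that rose, 3.16% of those that fell and 3.24% of those not called. The 318 genes with it had a median log2 fold change of 0.03, against -0.12 over the 8299. Windows of 30 bases follow, on the strand of the gene, with every match in capitals, from the members with the largest rises that hold a match away from the ends of the stretch before the start. They are IFI44L at chr1:78620274-78620303, RTP4 at chr3:187368333-187368362, IFIT3 at chr10:89327831-89327860 and IFIT5 at chr10:89414513-89414542, all on the plus strand. IFIT3 and IFIT5, which bind foreign RNA, were picked as examples after their values were seen.
IFI44L: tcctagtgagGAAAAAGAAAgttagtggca
RTP4: tccatacacaGAAACAGAAActgaaccgaa
IFIT3: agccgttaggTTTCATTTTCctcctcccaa
IFIT5: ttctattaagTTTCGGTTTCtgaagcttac
IFIT3 had 76.0 and 77.8 RPM with DMSO and 287 and 292 RPM with STM3675 (log2 fold change 1.91), and IFIT5 had 110 and 103 RPM against 368 and 352 RPM (1.75). A match is a run of letters and was not tested for binding.

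Genes that sense or edit double-stranded RNA did not move as a group. Of 23 measured, 8 rose and 7 fell, and the median was -0.05 (0.06 with TMM factors). DDX58, which encodes the sensor RIG-I, had 66.2 and 56.3 RPM with DMSO and 143 and 142 RPM with STM3675 (log2 fold change 1.22, SE 0.09, adjusted p = 1.35e-05, edgeR). ADAR, which edits double-stranded RNA and is itself induced by interferon, had 417 and 366 RPM against 591 and 582 RPM (0.58). PRKRA, an activator of the kinase PKR, fell from 33.5 and 31.9 RPM to 20.0 and 20.3 RPM, and ILF2 fell from 56.1 and 68.8 RPM to 38.7 and 41.4 RPM. For antigen presentation 13 of 20 genes rose and 3 fell, with a median of 0.29; 8 rose without STM3675 replicate 2, and 1 fell without STM3675 replicate 1. TAP1, the peptide transporter, rose from 84.3 and 88.9 RPM to 147 and 147 RPM, and HLA-E from 120 and 126 RPM to 192 and 201 RPM. B2M, the light chain of class I molecules, was called lower (-0.44) and is 1 of the 3 falls. The difference was 0.32 at sites outside DRACH and 0.27 without sites at the 10000-read ceiling of the table. Neither of these was called (adjusted p = 0.197 and 0.308, edgeR). Without the sites at the ceiling 2 genes of the list fell, so the call of B2M depended on those sites. Of 6 SOCS genes measured 1 was called (3 with TMM factors): SOCS2 rose, at 56.3 and 54.0 RPM against 108 and 98.6 RPM. The 2 members under the read minimum, CISH and SOCS1, are not in these counts. CISH had 19 and 27 reads with DMSO and 80 and 71 reads with STM3675 (log2 fold change 1.24). SOCS1 had 4 and 7 reads against 41 and 16 reads (1.86). Both were named after their counts were seen, and their reads are few.

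**Figure D5:**
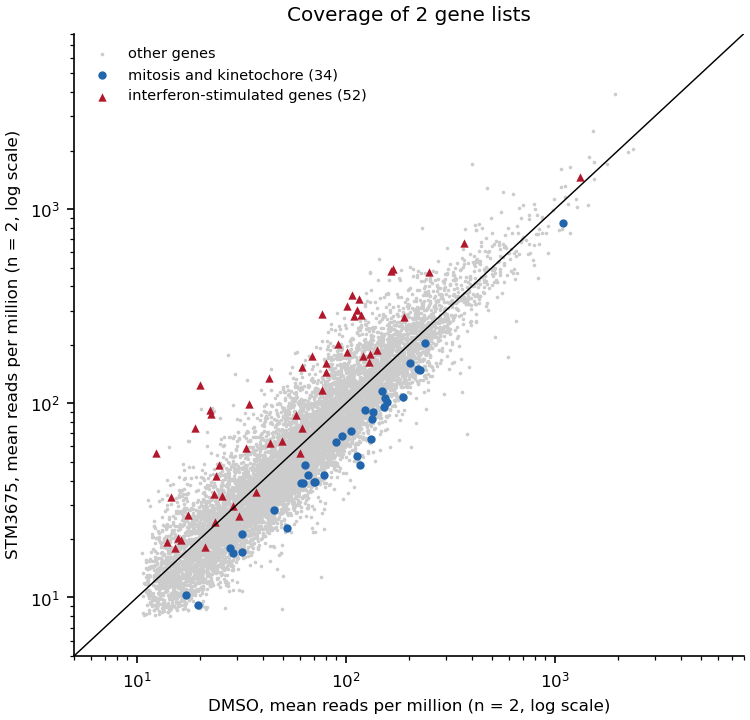
Mean coverage with STM3675 against mean coverage with DMSO (RPM, both axes log, n = 2 each) for 10083 genes, with equality as a line. Triangles mark 52 interferon-stimulated genes, of which 43 were called higher, and circles mark 34 mitosis genes, of which all were called lower. Of all genes tested 23.0% were called higher and 38.2% lower.

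Genes of mitosis and the kinetochore had lower coverage throughout. Of 37 listed, 34 were measured, and all 34 fell, beside 38.2% of all genes tested. Their median log2 fold change was -0.64. With TMM factors 33 fell, since CENPF, the smallest of the falls at -0.22, lost its call, and leaving out 1 library gave 32 to 34. ANLN, a cytokinesis scaffold, had 120 and 113 RPM with DMSO and 52.9 and 43.7 RPM with STM3675 (log2 fold change -1.27, SE 0.10, adjusted p = 1.84e-05, edgeR). NDC80, which couples kinetochores to microtubules, had 50.1 and 54.5 RPM against 21.7 and 23.6 RPM (-1.21), and BIRC5, the survivin gene, had 197 and 206 RPM against 160 and 160 RPM (-0.33). All 34 genes lay below the median of their own m6A quintile, and the medians by quintile from the lowest m6A up were -0.69, -0.75, -0.62, -0.52 and -0.61. The list's centred medians were 0.30 and 0.33 in the DMSO libraries and -0.33 and -0.30 in the STM3675 libraries.

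The cell cycle homology region (CHR), TTTGAA or TTCAAA when reversed, is a promoter element of many G2 and mitosis genes. It occurred in 15.2% of all promoters and in 19 of the 28 measured mitosis members with a promoter in the table (67.9%). Over the 8299 tested genes with a promoter in the table, it occurred in 14.6% of those that fell, 13.8% of those that rose and 11.8% of those not called. The 1108 genes with it had a median log2 fold change of -0.16, against -0.12 over the 8299. Windows are shown for ANLN at chr7:36389824-36389853 (plus strand), CDC25C at chr5:138331817-138331846 (minus strand), CDC20 at chr1:43358791-43358820 (plus strand) and PLK1 at chr16:23678848-23678877 (plus strand), with every match in capitals. They come from the members with the largest falls that hold a match away from the ends of the stretch before the start, and the last 3 were picked after their values were seen.
ANLN: tcggcgctgaaaTTCAAATTTGAAcggctg
CDC25C: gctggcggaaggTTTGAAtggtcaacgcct
CDC20: cctctcgtacccTTCAAAtcgcgctccgcc
PLK1: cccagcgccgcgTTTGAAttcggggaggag
CDC25C, the phosphatase that activates CDK1, had 28.7 and 35.0 RPM with DMSO and 17.7 and 16.6 RPM with STM3675. CDC20, the activator of the anaphase-promoting complex, had 74.3 and 83.0 RPM against 46.6 and 39.3 RPM. The mitotic kinase gene PLK1 had 65.8 and 75.2 RPM against 39.8 and 39.3 RPM. In all 3 genes both STM3675 libraries were below both DMSO libraries.

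DNA replication genes mostly fell as well: 25 of 33 were lower (21 with TMM factors), 3 were higher, and the median was -0.44. Over all genes tested 38.2% fell and 23.0% rose, or 27.9% and 29.7% with TMM factors. RRM2, the regulated subunit of ribonucleotide reductase, had 248 and 236 RPM with DMSO and 94.4 and 93.0 RPM with STM3675 (log2 fold change -1.37, SE 0.07, adjusted p = 3.09e-06, edgeR), and TYMS, thymidylate synthase, had 35.7 and 47.7 RPM against 20.9 and 22.7 RPM (-0.93). FEN1, the flap endonuclease, went the other way, from 490 and 454 RPM to 1243 and 1326 RPM (1.44), and had a gene m6A level of 61.8%. GINS3 also rose (0.60). Of 25 genes of G1 cyclins, CDKs and the RB pathway 15 fell (12 with TMM factors) and 1 rose. CDKN2C, an inhibitor of CDK4 and CDK6, fell from 102 and 104 RPM to 33.8 and 35.1 RPM, and CCNE2, cyclin E2, from 52.1 and 45.9 RPM to 23.4 and 22.8 RPM. The 1 rise, in CDKN2B (0.28), was lost without either STM3675 library. The CDK inhibitor gene CDKN1A was not called, at 92.4 and 99.4 RPM with DMSO and 89.0 and 96.6 RPM with STM3675 (-0.05, or 0.06 with TMM factors, adjusted p = 0.614).

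Genes with short-lived mRNAs split, with 45.0% higher and 35.0% lower beside 23.0% and 38.2% of all genes tested. Of 40 immediate early and other short-lived regulators measured, 18 rose and 14 fell (median 0.14), in a list with a median m6A level of 42.1%. SERTAD1 rose from 121 and 163 RPM to 431 and 436 RPM (log2 fold change 1.61), and ID2, an inhibitor of bHLH factors, from 121 and 141 RPM to 380 and 383 RPM (1.54). FOS fell from 24.7 and 29.6 RPM to 11 and 11.9 RPM (-1.25), and SGK1, described above, fell most. MYC rose from 51.0 and 53.1 RPM to 70.2 and 69.7 RPM (0.43, adjusted p = 0.00143, edgeR). All the named changes kept the groups apart.

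In the Hippo and TGF-beta list 8 of 24 genes rose (33.3%) and 10 fell (41.7%), beside 23.0% and 38.2% of all genes tested. Beside BAMBI, the inhibitory SMAD gene SMAD7 rose from 10.8 and 11.8 RPM to 30.8 and 32.6 RPM, while SMAD2, which carries the TGF-beta signal, fell from 268 and 224 RPM to 114 and 119 RPM. AXL fell from 225 and 218 RPM to 124 and 132 RPM. Among 14 receptor tyrosine kinases 6 rose and 4 fell (2 without STM3675 replicate 2), with rises in DDR1 (413 and 429 RPM against 781 and 789 RPM) and ERBB3 (68.0 and 64.9 RPM against 124 and 120 RPM). Of 17 epithelial genes 7 rose and 4 fell (2 without STM3675 replicate 1, 1 without STM3675 replicate 2). The junction genes CLDN3 (169 and 193 RPM against 430 and 429 RPM) and CDH1 (172 and 142 RPM against 273 and 267 RPM) were higher, and KRT18, a keratin of simple epithelium, was lower (124 and 127 RPM against 78.6 and 72.9 RPM).

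Cell death and stress lists were mixed, and are set beside all genes tested, of which 23.0% rose and 38.2% fell. For NRF2 targets these shares were 33.3% and 38.9%. Of 21 p53 targets 9 rose and 5 fell, with TIGAR higher (215 and 229 RPM against 474 and 481 RPM) and DDB2 lower (104 and 116 RPM against 51.9 and 59.8 RPM). Of 13 BCL2 family genes 6 rose (3 without either STM3675 library) and 1 fell (3 without DMSO replicate 1, 0 without STM3675 replicate 1). BCL2L1, an inhibitor of apoptosis, rose from 238 and 242 RPM to 410 and 397 RPM, and BOK from 39.4 and 39.3 RPM to 62.8 and 67.6 RPM. For the integrated stress response the counts were 9 higher and 5 lower of 27 (11 and 1 with TMM factors). Without 1 library 1 to 9 were lower, 1 without STM3675 replicate 2, 2 without STM3675 replicate 1 and 9 without DMSO replicate 1. SLC3A2, the amino acid transporter heavy chain, was higher at 397 and 429 RPM against 790 and 860 RPM, and CEBPG at 195 and 202 RPM against 391 and 378 RPM. HSPA5, the main chaperone of the endoplasmic reticulum, rose from 554 and 578 RPM to 1207 and 1249 RPM, in a list where 7 of 21 rose (4 without either STM3675 library) and 7 fell (4 without STM3675 replicate 1). Of 15 cytosolic heat shock genes 9 fell and 2 rose (1 without either STM3675 library), with HSP90AA1 at 164 and 176 RPM against 104 and 104 RPM. Of 18 NRF2 targets 6 rose (3 without either STM3675 library) and 7 fell, among them GCLM (-0.76), while KEAP1 (0.56) and NFE2L2 (0.54) themselves rose.

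Genes of cholesterol synthesis and uptake had the second highest list median, 0.43, with 16 of 23 higher and 4 lower (2 without STM3675 replicate 2). MSMO1, a sterol methyl oxidase, rose from 51.0 and 63.6 RPM to 126 and 117 RPM (log2 fold change 1.09), and HMGCS1, which makes HMG-CoA, from 101 and 88.4 RPM to 196 and 181 RPM (1.00). PMVK, phosphomevalonate kinase, fell (-0.64), as did STARD4, a sterol carrier (-0.41). In this list 69.6% rose and 17.4% fell, beside 23.0% and 38.2% of all genes tested.

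Among lists of core cellular machinery the share that fell ran from 47.2% to 82.6%, against 38.2% of all genes. Of 23 proteasome subunits 19 fell and 0 rose (1 without DMSO replicate 2), with a median of -0.57. PSMC4, an ATPase subunit, was at 57.8 and 63.4 RPM with DMSO and 27.0 and 28.9 RPM with STM3675. Of 33 oxidative phosphorylation genes 23 fell and 2 rose (1 without either STM3675 library), and the median was -0.40, with CYC1, cytochrome c1, at 25.3 and 25.7 RPM against 13.9 and 12.4 RPM. Of these, UQCRFS1, the Rieske protein, rose from 252 and 254 RPM to 431 and 457 RPM and had an m6A level of 71.6%. Of 36 cytosolic ribosomal protein genes measured, out of 79 listed, 17 fell (47.2%; 12 with TMM factors and 27 without DMSO replicate 1), 1 rose and 18 were not called. RPS16 fell from 37.0 and 28.8 RPM to 15.9 and 16.3 RPM. The median m6A level was 18.7% in the oxidative phosphorylation list and 19.5% in the ribosomal protein list, below that of all genes. The 2 DMSO libraries differed in these lists, with centred medians of 0.10 and 0.32 for oxidative phosphorylation and 0.02 and 0.33 for ribosomal proteins, where many genes have near-identical pseudogene copies. Set against their own m6A quintile, the medians were -0.46 for the proteasome, -0.21 for oxidative phosphorylation and -0.21 for ribosomal proteins, of which 13 lay above it.

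Genes that process and degrade RNA are set beside all genes tested, of which 38.2% fell and 23.0% rose. Of 31 splicing factors 17 fell (54.8%) and 0 rose (2 without DMSO replicate 1 and 1 without DMSO replicate 2). SF3A3, a subunit of the U2 particle, fell from 88.8 and 87.6 RPM to 47.1 and 47.6 RPM, and HNRNPH1 from 77.2 and 80.0 RPM to 39.2 and 46.2 RPM. Of 35 genes of cleavage, polyadenylation and Integrator 21 fell (60.0%) and 7 rose. PAPOLA, the poly(A) polymerase, fell from 183 and 160 RPM to 98.9 and 94.2 RPM, while CLP1, of the cleavage machinery, rose from 118 and 129 RPM to 323 and 324 RPM, and INTS5 from 122 and 128 RPM to 226 and 230 RPM. Of 40 genes of the exosome, nuclear surveillance and deadenylation 21 fell (52.5%) and 4 rose (2 without either STM3675 library). The exosome subunit EXOSC6 fell (-1.06), as did PAN2, a deadenylase (-0.98). Against their own m6A quintile the medians of the 3 lists were closer to 0, at -0.13, -0.13 and -0.10, with 10, 12 and 16 members above it.

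Zinc finger genes with a numbered ZNF symbol leaned the other way, with 45.7% higher and 16.0% lower beside 23.0% and 38.2% of all genes tested. Of 243 measured, out of 430 listed, 111 rose and 39 fell (132 and 25 with TMM factors, 24 lower without STM3675 replicate 2), with a median of 0.22. ZNF329 rose from 20.8 and 16.3 RPM to 44.7 and 49.2 RPM, and ZNF426 from 25.8 and 19.6 RPM to 55.0 and 56.6 RPM. ZNF185, which encodes a LIM-domain protein of the actin cytoskeleton, fell from 65.4 and 53.1 RPM to 28.6 and 32.6 RPM. Against their own m6A quintile 169 of the 243 were higher, by a median of 0.22. Among histone genes 25.0% rose and 25.0% fell, beside 23.0% and 38.2% of all genes tested. Of 12 histone genes 3 rose (5 without DMSO replicate 2) and 3 fell (5 without DMSO replicate 1, 1 without either STM3675 library). Of 3 metallothioneins MT1E fell (210 and 173 RPM against 104 and 110 RPM) and the others were not called (1 rose without DMSO replicate 2).

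Reads at sites without an exon type (first, internal, last or single) made up 8.21% and 8.00% of the DMSO libraries. They made up 6.60% and 6.54% of the STM3675 libraries. Single-exon genes took 2.47% and 2.55% with DMSO and 3.21% and 3.30% with STM3675. Of the reads at sites with an exon type, last exons took 61.4% and 61.6% with DMSO and 62.3% and 63.7% with STM3675. None of these shares overlapped between the groups, and each gave the smallest exact two-sided permutation p that 2 against 2 allows, 0.33. First exons took 3.37% and 3.61% of the DMSO libraries and 3.41% and 3.26% of the STM3675 libraries, which did overlap (exact two-sided permutation p = 0.67).

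Within genes, coverage rarely shifted between the last exon and internal exons. Of 4346 genes with at least 200 reads in each part of every library, 70 shifted to the last exon (1.61%) and 67 to internal exons (1.54%), by an edgeR interaction test with a term per library. Leaving out 1 library gave 14 to 216 and 12 to 150, the most without DMSO replicate 2 and the fewest without STM3675 replicate 1, so the counts rest on single libraries. RWDD3 had 27.5% and 26.2% of its reads in the last exon with DMSO and 51.9% and 54.7% with STM3675, and ATRIP had 37.3% and 50.3% against 75.6% and 75.8%. ATRIP, which brings the kinase ATR to damaged DNA, shares listed sites with TREX1, a DNA exonuclease that itself rose (20.6 and 29.4 RPM against 86.5 and 82.0 RPM), so its reads are uncertain. ZBTB38 also shifted to the last exon. NIPBL, the cohesin loader, went from 17.3% and 18.4% to 7.46% and 8.86%, and ZNF839 from 59.4% and 60.4% to 36.9% and 41.1%. C11orf24 and PPP3CB, a catalytic subunit of calcineurin, shifted to internal exons too. In every gene given here the libraries of the groups did not overlap. Over all genes tested for a shift they did. The median log2 ratio of last-exon to internal-exon reads was taken relative to each gene's mean over the 4 libraries. It was -0.024 and -0.009 in the DMSO libraries and -0.037 and 0.067 in the STM3675 libraries.

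Of the 3661 genes left out, 411 had at least 200 reads in both STM3675 libraries only and 133 in both DMSO libraries only. The STM3675 libraries were deeper, so this imbalance is no measure of change. The fitted genes had a median of 27 listed sites, from 1 to 345.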

How the data were processed

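GLORI libraries of polyadenylated RNA from CAOV3 cells were used, 2 with DMSO and 2 with STM3675. The submitters' processing notes name cutadapt, STAR and the GRCh38 build. Their versions and settings, and any removal of duplicates, were not given in the sources. For each site and library the authors deposited a count of A or G reads, and the methylated fraction, the part of that count read as A. D columns were taken as DMSO and T columns as treatment. All 407343 sites have at least 20 reads and a fraction of 0.25 in some DMSO library of the 6 lines, so no site was chosen on an STM3675 library. Using sites that passed in another line alone left 2185 genes higher and 3659 lower. Deposited counts stop near 10000 reads, which touches 8 of the genes used.

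Counts were summed per gene name over unique sites, and 94 genes have a site that stands under more than 1 gene. Totals at all listed sites served as library sizes, with no TMM factors. edgeR 4.0.16 (quasi-likelihood, R 4.3.3) was fitted to genes with 200 or more reads in every library, with Benjamini-Hochberg adjustment over 10083 genes at 0.05. Simulated counts for this comparison had 100 genes changed 1.5-fold and 100 changed 2-fold, equally up and down, with the dispersions edgeR estimated here. The test recovered 95% and 100% of these and called 10 unchanged genes. Far fewer genes changed there than were called in the real data, and the changes were balanced. The simulation therefore gives no error rate for the shift of the median seen here. Alternatives were TMM factors, DESeq2 1.42.0, limma 3.58.1 (voom), other minimums, other sets of sites, the replicate number as a block and each library left out. Equal depth (thinning) and the classes of reads and exons were added after seeing the data. Genes were named by rule: the 12 largest changes each way, the 2 highest and 2 lowest of each list, 8 further genes of m6A and interferon biology or the cell cycle, and the 4 largest exon shifts each way. The members and lists were chosen with earlier results of these data known.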

Additional observations from a re-analysis of the deposited data

How the results depend on the processing

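Scaling set which direction held more calls: TMM factors gave 2993 genes higher and 2809 lower, and DESeq2 2828 higher. The m6A difference kept its sign in every alternative run. Leaving out 1 library gave 1720 to 2787 genes higher and 2688 to 4473 lower. DESeq2 called 2561 genes lower. A minimum of 1000 reads, which tests fewer genes, left 1381 and 1893, DRACH sites alone gave 2549 lower, and internal-exon sites gave 1060 and 1772. The difference between outer m6A quintiles (0.52) was 0.50 with a minimum of 1 read, 0.43 with 1000 reads, 0.54 outside DRACH, 0.41 in DRACH, 0.50 with 1 site per 100 nt, 0.43 in last exons, 0.46 in internal exons, 0.48 with the level over DRACH sites and 0.49 with the level of DMSO replicate 1. It was 0.46, 0.47, 0.45 and 0.39 in read quintiles 1, 3, 4 and 5, 0.57, 0.38, 0.37 and 0.26 by exon class, and 0.50 to 0.52 without 1 library. Exon shifts numbered 34 and 26 with a minimum of 500 reads, 38 and 35 outside DRACH, and 14 to 216 and 12 to 150 without 1 library. Outside DRACH, the share without an exon type fell by 1.38 points (1.54 in all). That of last exons rose by 2.43 points (1.49 in all, 0.84 to 2.15 without 1 library). The causes were not tested.

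The labels do not say whether replicate numbers pair the libraries. Deviations of same-numbered libraries correlated at 0.0039 over genes, and 2 pairs of libraries are too few to decide. With the replicate number as a block, 2364 genes were higher and 3910 lower, the m6A difference was 0.52, and 62 and 60 genes shifted between exons.

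Of 145 named genes 125 were called, and 108 of these were called in the same direction under every alternative they could be tested in. Called directions that turned were those of B2M (0.32 outside DRACH, 0.27 without capped sites), PDIA3 (0.067 outside DRACH, 0.041 in internal exons) and BAX (0.24 in internal exons). The other sign changes were of genes not called. With TMM factors and DESeq2, SOCS3 went to 0.020 and 0.023, SOCS6 to 0.057 and 0.060, PSMB5 to 0.085 and 0.087, and CDKN1A to 0.062 and 0.064. Without 1 library, METTL3 ranged from -0.063 to 0.11, AMD1 from -0.058 to 0.34, PSMB5 from -0.066 to 0.016, SRSF7 from -0.14 to 0.37, MT1M from -0.095 to 0.28, and CDKN1A from -0.11 to 0.0099. Other site sets gave METTL3 -0.012, AHCY -0.0094, SOCS6 0.032 and 0.013, CDKN1B -0.11, PSMB5 0.023 and PSMD7 -0.19.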
